A study of Mus musculus with 22 samples.

Results

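The giant ubiquitin ligase genes *Huwe1*, *Herc1*, *Herc2*, *Ubr4*, *Birc6*, *Mycbp2* and *Trip12* are described here as targets of the RNA-binding protein hnRNP A1 in the mouse spinal cord. The 7 genes were chosen by name as a family, and their footprints are those that overlap a member's annotated span by at least 1 nt. They held 672 of the 136207 footprints of 10 mice, and 13948 annotated genes held at least 1 footprint in any mouse. All 7 members were footprinted, and all 7 passed the filter of footprints in at least 3 mice.

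Ubiquitin ligases select the proteins to which ubiquitin is attached, which marks many of them for the proteasome. Members of the HECT class, here *Huwe1*, *Herc1*, *Herc2* and *Trip12*, carry ubiquitin on a cysteine of a catalytic domain at their C terminus before passing it on. *Ubr4* recognizes N-terminal degradation signals, *Birc6* is an inhibitor of apoptosis that combines conjugating and ligase activity, and *Mycbp2* is known for its role in axon growth, synapse formation and axon degeneration. hnRNP A1 is a mainly nuclear RNA-binding protein with a known preference for UAG-containing RNA and with roles in splicing and mRNA export.

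hnRNP A1 was crosslinked to RNA by UV light in spinal cords and immunoprecipitated, and the attached RNA was sequenced (CLIPseq). All mice were wild-type female C57BL/6N animals, with no transgene or deletion in any group. The 7 mice with experimental autoimmune encephalomyelitis (EAE) were immunized with a MOG peptide in complete Freund's adjuvant, received 100 ng of pertussis toxin, and were taken 15 days after clinical onset. Immunization is given at 12 weeks of age in one place and at 8 weeks in another, and the naïve controls were age-matched. Mild EAE was represented by 3 mice, numbers 3 and 4 with a clinical score of 1.5 and number 7 with 1.0, and severe EAE by 4 mice, numbers 1 and 5 with 2.5 and numbers 2 and 6 with 3.0. The 3 naïve mice were numbers 1 to 3. Numbers name different animals and do not pair them, and each mouse gave 1 list of footprints. The whole cord was lysed, so fewer cells of a type and less RNA per cell cannot be told apart. RNA levels were not analysed here either, so a longer footprinted length and a higher level of the transcript cannot be told apart.

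The length of the lists differed widely between mice, most of all in severe EAE. The naïve lists held 17119 to 17494 footprints, the mild EAE lists 9751 to 24433, and the severe EAE lists 209 to 31870. Severe EAE 5 had the longest list of all mice, with 31870 footprints, whereas severe EAE 1, 2 and 6 had 2670, 209 and 673. Of 6 microglia and leukocyte markers, 0 were footprinted in naïve mice and 5 in mild EAE mice, with a summed covered length of 0 nt in the naïve cords and 1038 to 2329 nt in mild EAE. In severe EAE mice 4 of them were footprinted, with sums of 0 to 2937 nt. The 6 neuron markers summed to 2932 to 4316 nt in naïve, 1280 to 2582 nt in mild EAE and 0 to 6053 nt in severe EAE mice. The 6 oligodendrocyte markers summed to 1970 to 6826, 2479 to 6635 and 67 to 11060 nt, and the 5 astrocyte markers to 1295 to 3574, 2522 to 4853 and 0 to 9752 nt. Neuron, oligodendrocyte and astrocyte markers were thus footprinted in every group, and the part of cell composition in the values below was not tested.

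The 7 genes took up a small share of each list, between 0.262% and 0.692% in the 8 mice with a footprint on them. In naïve mice 1, 2 and 3, footprints on the members were 60, 55 and 121, which is 0.350%, 0.315% and 0.692% of the list. The exact 95% binomial (Clopper-Pearson) interval of naïve mouse 3, 0.574% to 0.826%, lay above those of the other naïve mice, 0.268% to 0.451% and 0.237% to 0.410%. Mild EAE mice 3, 4 and 7 had 77, 56 and 117, or 0.530%, 0.574% and 0.479%. Severe EAE 5 had 179, or 0.562%, and severe EAE 1 had 7, or 0.262% with an interval from 0.105% to 0.539%. Severe EAE 2 and 6 had 0. At the mean naïve share of 0.452%, lists of their length would hold 0.946 and 3.04 footprints on the members. Whether the absence of a footprint there goes beyond a short list was not tested. The mean share was 0.452% ± 0.208 (SD, n = 3) in naïve and 0.528% ± 0.0478 (SD, n = 3) in mild EAE. Intervals cover counting error only, and they are too narrow because neighbouring footprints are often parts of 1 molecule.

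**Figure D1:**
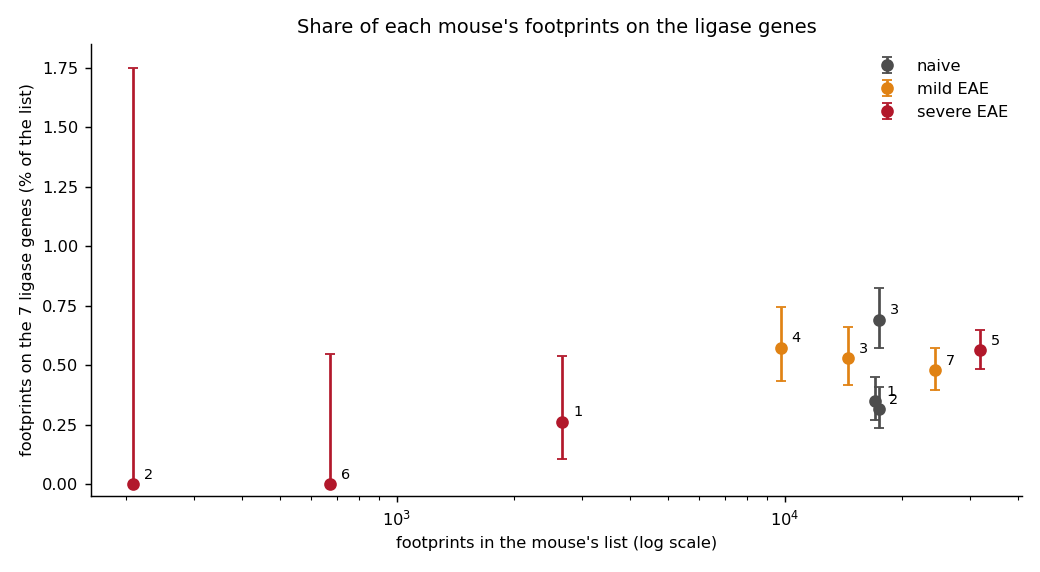
Percent of each mouse's footprints that lie on the 7 ligase genes (vertical axis) against the number of footprints in its list (horizontal axis, log scale), with exact 95% intervals and mouse numbers. The 2 severe EAE mice at 0 have the shortest lists, 209 and 673 footprints, and naïve mouse 3 has the highest share, 0.692%.

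Footprints on these genes lay mostly in coding exons. By midpoint, 644 of the 672 footprints (95.8%) lay in coding sequence of the member, 21 (3.12%) in an intron, 4 in another exon, 2 in the 5' UTR and 1 in the 3' UTR. Introns made up 82.5% to 91.8% of the members' spans, whereas exons held 91.4% (*Mycbp2*) to 99.9% (*Herc2*) of their covered length. *Herc1* and *Herc2* had no intronic footprint among 38 and 53. All 11 intronic footprints of *Ubr4* fell in exons of *Emc1*, a neighbouring gene on the same strand whose annotation overlaps it, so they cannot be told apart from *Emc1* RNA. The intronic footprint of *Birc6* lay within *Gm26749*, an antisense gene that 7 of its 28 footprints overlapped. Footprints in introns of a member alone therefore numbered 9, of which 7 were on *Mycbp2*, and 1 each on *Huwe1* and *Trip12*.

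Over all protein-coding genes the picture was different. Counting as intronic a midpoint outside the exons of every gene, 24.4% of footprints in protein-coding genes were intronic, against 1.49% for the members. In naïve mice 1, 2 and 3 the share over all protein-coding genes was 37.7%, 41.3% and 26.9%, and in mild EAE mice 3, 4 and 7 it was 10.2%, 22.5% and 17.4%. The members' share by their own exons was 0%, 5.45% and 4.13% in the same naïve mice and 0%, 0% and 5.98% in the mild EAE mice. It was 0% of 7 footprints in severe EAE 1 and 3.35% in severe EAE 5, where all protein-coding genes had 16.8% and 20.4%. Counted outside the exons of every gene, the members' share was 1.82% in naïve mouse 2, 0.855% in mild EAE 7 and 1.68% in severe EAE 5. It was unchanged in the other mice with footprints on them. The members were below the other genes in each of the 8 mice that had footprints on them. Within the members the mean intronic share by their own exons, which takes in the *Emc1* footprints, was 3.20% ± 2.85 (SD, n = 3) in naïve mice. In EAE mice it was 1.87% ± 2.72 (SD, n = 5), within the spread of the naïve values. By covered length, 4.48% of the members' footprinted nt lay outside exons, close to the 4.69% of the 5 giant cytoskeletal linker genes and below the 20.1% of 8 spectrin and ankyrin genes, the 63.8% of 22 other HECT ligase genes and the 39.1% of all protein-coding genes. Most of the covered length of the other HECT ligases lay on *Ube3a*, with a mean of 8866 nt over all mice, followed by *Hectd4* with 675 nt. *Ube3a* overlaps an antisense transcript from which its RNA cannot be told apart, so the 63.8% does not describe the list as a whole. A share under 10% was found for 7 of 7 members, 5 of 5 linkers, 3 of 8 spectrins and ankyrins, 11 of 20 footprinted other HECT ligases and 53.9% of all 9999 footprinted protein-coding genes.

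**Figure D2:**
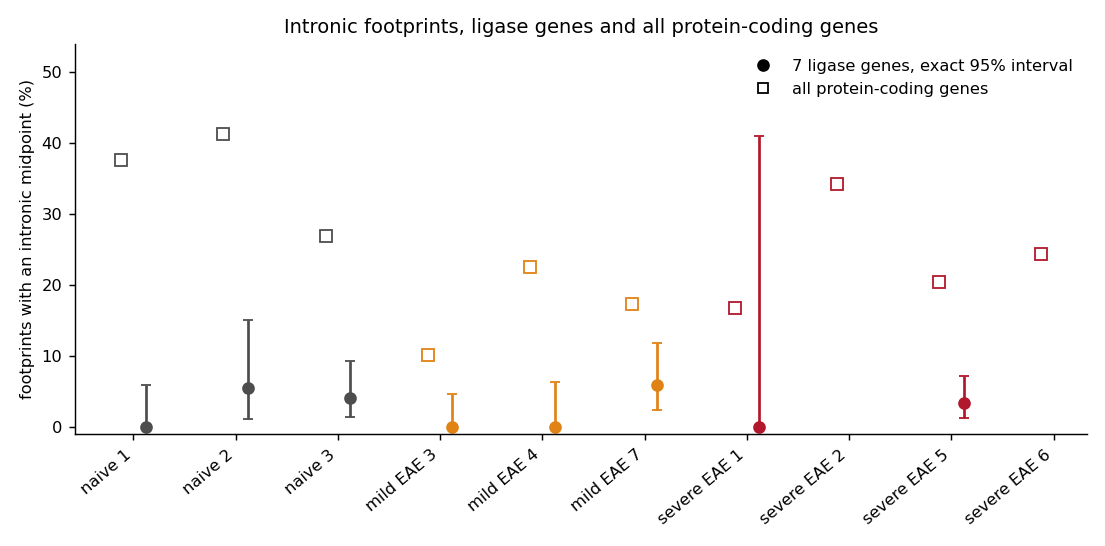
Percent of footprints with an intronic midpoint in each mouse, for the 7 ligase genes (filled circles, exact 95% intervals, relative to the gene's own exons) and for all protein-coding genes (open squares, outside the exons of every gene). The circles lie between 0% and 5.98%, below the square of the same mouse in all 8 mice that have both, although the interval of severe EAE 1 rests on 7 footprints and spans its square.

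Most of these footprints abutted a splice site. Of the 651 footprints of the members with an exonic midpoint, 579 (88.9%) began or ended exactly at an annotated exon end, compared with 74.7% of 86908 exonic footprints over all protein-coding genes. In the same mouse, 296 exon-exon junctions of the main transcripts had a footprint ending at the junction on the upstream exon and another starting at it on the downstream exon. These pairs took in 545 of the 672 footprints (81.1%), from 50% in *Herc1* to 96.2% in *Herc2*. Joined along the spliced mRNA, the exonic parts formed 347 separate segments with a median length of 152 nt, the longest 443 nt on *Ubr4*. The authors assembled contigs and aligned them with splicing allowed, and a contig that crosses an intron can appear in the lists as its exon parts. Since the 651 exonic footprints formed 347 segments, covered length was used as the measure below.

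Little of the untranslated ends was covered, apart from the 5' UTR of *Trip12* in severe EAE 5. Along the main mRNAs, coding sequence was covered at 61.8 nt per 1000 nt per mouse over the 7 genes, the 5' UTRs at 11.3 and the 3' UTRs at 2.25. *Trip12* has the longest 3' UTR, 3432 nt, and it held 0 covered nt in 10 mice, against 3712 covered nt summed over mice in its 6075 nt coding sequence. The only covered 3' UTR was that of *Mycbp2*, with 149 nt in severe EAE 5. The 5' UTR of *Trip12*, 125 nt long, held 120 covered nt, all in a single segment of severe EAE 5 and none in the other mice. Per mouse this was 96 nt per 1000 nt, against 61.1 in its coding sequence, which was covered in 7 mice. This segment made up nearly all of the 123 covered 5' UTR nt, the rest being 3 nt of *Herc1*. *Huwe1*, *Herc2* and *Ubr4* had no covered nt in either UTR. The annotated main transcript of *Birc6* has next to no UTR, so its ends were not measured.

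*Ubr4*, on chromosome 4 from 139352609 to 139489588 (plus strand, GRCm38; ENSMUSG00000066036.14), carried the most footprints, 234. Its covered length was 2515, 1622 and 3239 nt in naïve mice 1, 2 and 3, and 2648, 1506 and 3312 nt in mild EAE mice 3, 4 and 7. In severe EAE mice 1, 2, 5 and 6 it was 363, 0, 4545 and 0 nt. The naïve and mild ranges almost coincided, while the severe mice lay above and below both. Of the 106 exons of the main transcript, 85 were footprinted in at least 1 mouse and 12 in at least 5 mice.

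*Huwe1*, whose known substrates include Mcl1 and p53, lies on chromosome X from 151800807 to 151935417 (plus strand; ENSMUSG00000025261.17) and held 147 footprints. Naïve mice 1, 2 and 3 had 985, 1046 and 2198 covered nt. Mild EAE mice 3, 4 and 7 had 1531, 1233 and 2477 nt, each above the lower pair of naïve mice. The 4 severe mice, in the order 1, 2, 5 and 6, had 170, 0, 4376 and 0 nt. Over all mice, 56 of 83 exons were footprinted. 3 miRNA genes, *Mir3113*, *Mirlet7f-2* and *Mir98*, lie within the span, and none of the 147 footprints overlapped them.

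*Mycbp2*, on chromosome 14 from 103113411 to 103346814 (minus strand; ENSMUSG00000033004.15), held 130 footprints and overlaps no other annotated gene. Its covered length in naïve mice 1, 2 and 3 was 630, 735 and 2764 nt. In mild EAE mice 3, 4 and 7 it was 1050, 743 and 2310 nt, and in severe EAE mice 1, 2, 5 and 6 it was 102, 0, 4168 and 0 nt. Naïve mouse 3 exceeded the other naïve mice by more than these differed from the lower mild mice. Footprints were found on 53 of 85 exons.

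*Herc2*, a regulator of the response to DNA damage, lies on chromosome 7 from 56050196 to 56231800 (plus strand; ENSMUSG00000030451.16). The 53 footprints covered 610, 132 and 1120 nt in naïve mice 1, 2 and 3, and 335, 485 and 792 nt in mild EAE mice 3, 4 and 7. Severe EAE 5 had 949 nt and the other severe mice 0. The mild values thus fell inside the naïve range. 30 of 93 exons were footprinted in any mouse.

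*Herc1*, on chromosome 9 from 66350450 to 66508775 (plus strand; ENSMUSG00000038664.16), held 38 footprints, of which 5 also overlapped another gene. Naïve mice 1, 2 and 3 had 503, 242 and 1064 covered nt, and mild EAE mice 3, 4 and 7 had 739, 500 and 451 nt. Severe EAE 5 had 271 nt and the other severe mice 0. This was the only member for which severe EAE 5, the mouse with the longest list, stayed below all mild mice and below naïve mice 1 and 3. Its 3 footprints there lay on 3 of 78 exons, in the fourth of 5 equal parts of the coding sequence.

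*Trip12*, on chromosome 1 from 84721189 to 84840516 (minus strand; ENSMUSG00000026219.14), is the shortest member, with 6075 coding nt against 13134 to 15540 in the other main transcripts. Naïve mice 1, 2 and 3 had 173, 236 and 951 covered nt, and mild EAE mice 3, 4 and 7 had 445, 137 and 721 nt. Severe EAE 5 had 1405 nt and the other severe mice 0. 17 of its 41 exons were footprinted.

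*Birc6*, on chromosome 17 from 74528295 to 74703356 (plus strand; ENSMUSG00000024073.16), was the least footprinted member, with 28 footprints in 5 mice. Naïve mice 1, 2 and 3 had 0, 540 and 309 covered nt, and mild EAE mice 3, 4 and 7 had 0, 137 and 395 nt. Severe EAE 5 had 1193 nt, with no other mouse above 540 nt, and the other severe mice had 0. 23 of 73 exons were footprinted, each in at most 2 mice.

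**Figure D3:**
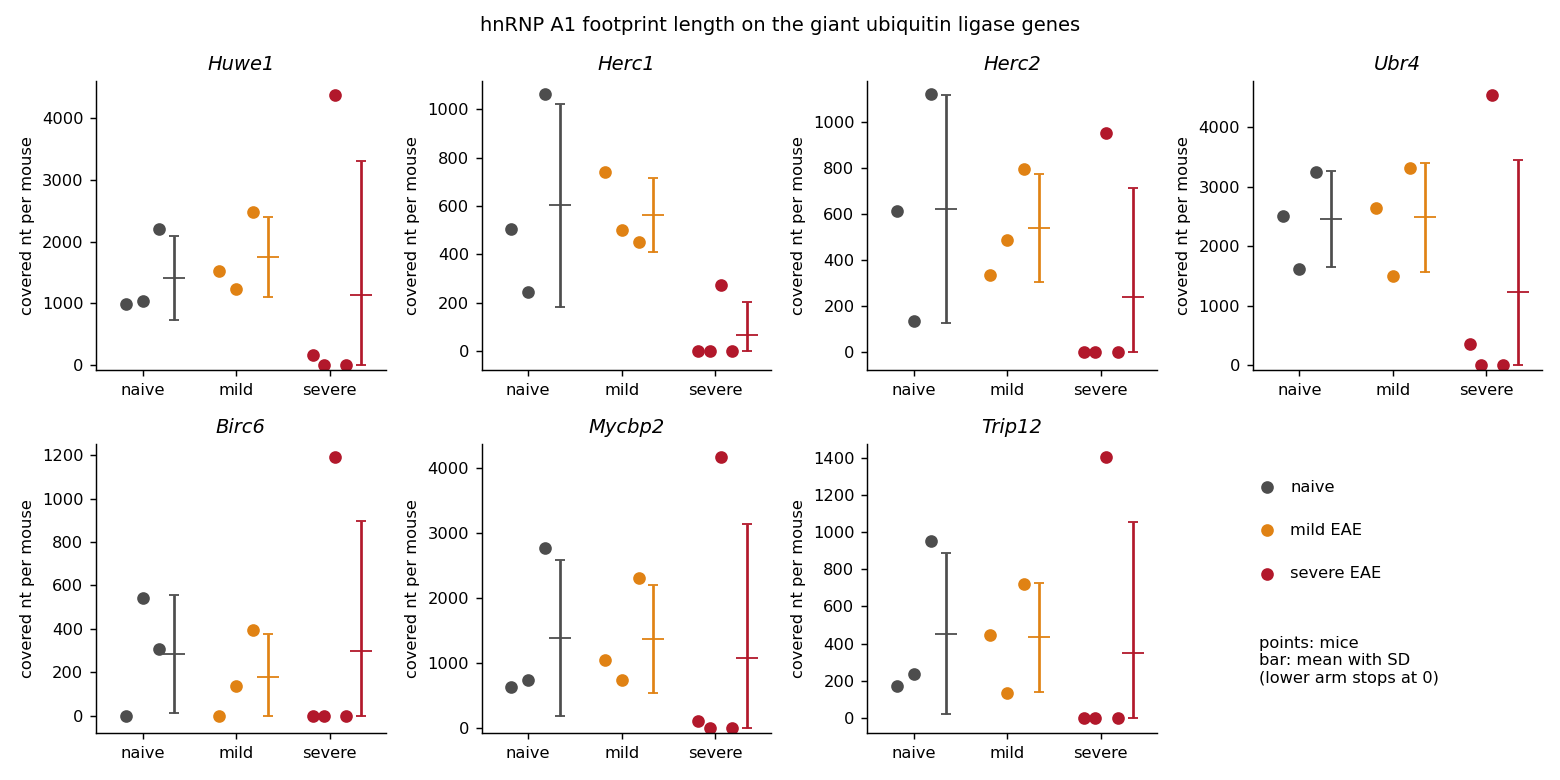
Covered length in nt of each of the 7 genes in every mouse (points), by group, with the group mean and SD beside the points (n = 3 naïve, 3 mild EAE, 4 severe EAE; the vertical axes differ between genes). In each panel 1 severe EAE mouse, number 5, stands above the other 3, and naïve mouse 3 is the highest naïve mouse in all panels but that of *Birc6*.

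Per exon length the members differed strongly among themselves and kept much of their order from mouse to mouse. In naïve mice the mean covered length per 1000 exon nt was 133 for *Ubr4*, 61.7 for *Mycbp2*, 60.0 for *Huwe1*, 38.3 for *Herc2*, 24.7 for *Trip12*, 21.7 for *Herc1* and 8.68 for *Birc6*. By this measure *Ubr4* was the highest member in 8 of the 8 mice with footprints on the family, *Huwe1* was among the highest 3 in 8 and *Mycbp2* in 7, and *Birc6* was the lowest in 5. Neighbours in the order mostly did not differ beyond their spread. The paired difference between *Ubr4* and *Mycbp2* was 70.8 ± 31.3 (SD, n = 3) in naïve mice, with *Ubr4* higher in each, whereas that between *Mycbp2* and *Huwe1* was 1.77 ± 16.5 and that between *Trip12* and *Herc1* 2.99 ± 9.76. Among 9999 protein-coding genes footprinted in any mouse, the naïve mean of *Ubr4* exceeded 98.7% of genes, *Mycbp2* 93.5%, *Huwe1* 93.1%, *Herc2* 87.2%, *Trip12* 79.8%, *Herc1* 77.1% and *Birc6* 56.5%. The median of the 7 members was 38.3 in naïve, 33.2 in mild EAE and 20.8 in severe EAE mice, beside medians of 6.15, 8.06 and 4.80 over all those genes. Exon nt here are those of all annotated transcripts, 23507 for *Huwe1* (main mRNA 14579) and 17997 for *Ubr4* (15928). Per 1000 coding nt the order changed in part. *Huwe1* then exceeded *Ubr4* in mild EAE 7 (183 and 181) and severe EAE 5 (318 and 269), with *Ubr4* higher in the other footprinted mice. *Huwe1* also exceeded *Mycbp2* in each naïve mouse.

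As a single exon set, the members were covered at 36.6, 28.7 and 74.4 nt per 1000 exon nt in naïve mice 1, 2 and 3 and at 45.9, 31.7 and 66.7 in mild EAE mice 3, 4 and 7. Severe EAE 1 had 4.31, severe EAE 5 had 109, and severe EAE 2 and 6 had 0. The group means were 46.6 ± 24.5 (SD, n = 3) in naïve, 48.1 ± 17.6 (SD, n = 3) in mild EAE and 28.5 ± 54.1 (SD, n = 4) in severe EAE. Other families of very long coding genes were covered more densely. The 5 giant cytoskeletal linker genes had 163 ± 59.0 (SD, n = 3) and the 8 spectrin and ankyrin genes 99.2 ± 33.4 (SD, n = 3) in naïve mice, and the 22 other HECT ligase genes 22.2 ± 7.40 (SD, n = 3). These lists are given as descriptions, without a test. The other HECT ligases lay below the members in naïve mice, and the lowest member value, 28.7, was above the highest of their values, 27.5.

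**Figure D4:**
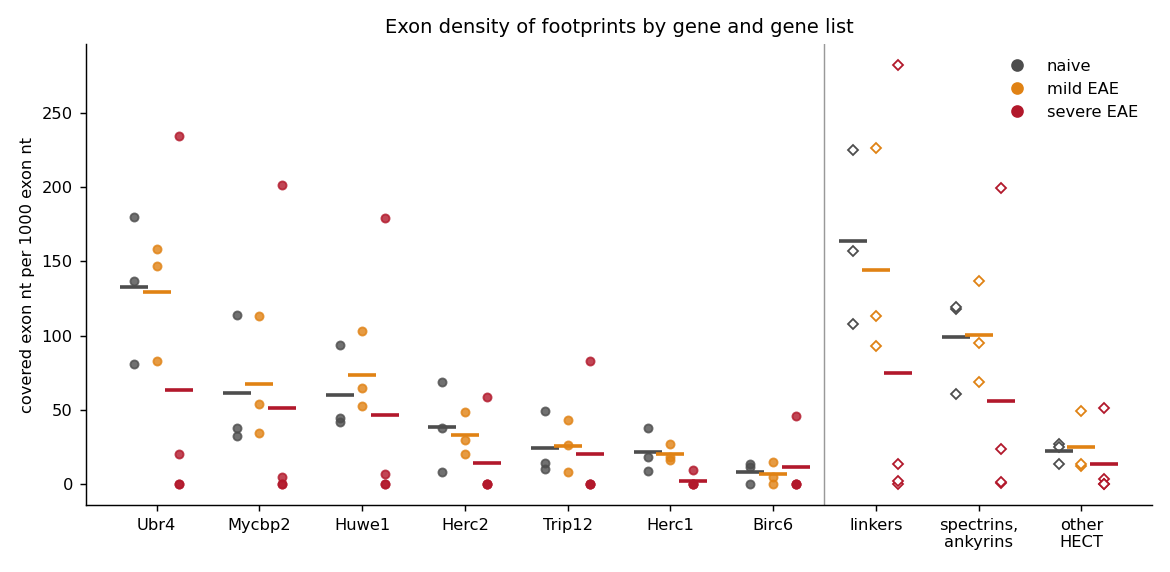
Covered nt per 1000 exon nt for each of the 7 ligase genes (filled circles, one per mouse) and for 3 gene lists taken as 1 exon set each (open diamonds), by group, with the group mean as a bar. *Ubr4* has the highest naïve mean of the 7, 133, and the linkers reach 163, while severe EAE 5 is the highest point of its group in every column.

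Naïve and EAE mice were compared for every gene footprinted in at least 3 mice by two-sided exact permutation tests of the difference in mean covered length, adjusted by the Benjamini-Hochberg method over all 6731 genes. None of the 7 members was called at an adjusted p under 0.05 in EAE against naïve, where 0 of the 6731 genes (0%) were called and 416 had an unadjusted p under 0.05, none of them a member. All 7 members had a lower mean in EAE, as had 59.7% of all genes. The differences, EAE minus naïve, were -691 nt for *Ubr4*, -323 for *Herc1*, -255 for *Herc2*, -180 for *Mycbp2*, -66.5 for *Trip12*, -36.6 for *Birc6* and -11.5 for *Huwe1*. The exact permutation p was lowest for *Herc1*, 0.175 (adjusted 0.944), and lay between 0.400 and 1 for the other members (adjusted 1). The median difference was -180 nt over the members and -26.3 nt over all genes tested. In none of the members did all 7 EAE mice lie below all naïve mice, a pattern that 1.99% of all genes showed, and none lay wholly above, as did 0.0149% of all genes. Per 1000000 mapped unique reads, *Ubr4* (exact permutation p = 0.0333, adjusted 0.196) and *Herc1* (exact p = 0.0417, adjusted 0.227) had an unadjusted p under 0.05 in EAE against naïve, as had 1234 genes in all, and 0 were called.

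Severe EAE alone gave the same picture. In severe EAE against naïve, 0 of 7 members and 0% of all genes were called, with 232 genes and 0 members at an unadjusted p under 0.05. The mean of *Herc1* was 603 ± 420 nt (SD, n = 3) in naïve and 67.8 ± 136 nt (SD, n = 4) in severe EAE mice, an exact permutation p of 0.0571 (adjusted 0.805), where 0.0286 was the smallest value that 3 against 4 mice allow. For *Ubr4* the difference was -1232 nt with an exact permutation p of 0.429 (adjusted 1), and *Birc6* had a difference of 15.2 nt with an exact p of 1. No member lay wholly below naïve, against 4.72% of all genes. Without severe EAE 5, 6 of 7 members lay wholly below naïve, all but *Birc6*, beside 37.5% of 5510 genes tested in that setting, and 0 were called. Scaled to 1000000 covered nt of each mouse, *Herc1* did lie wholly below naïve (exact p = 0.0286, adjusted 0.397), as did 9.94% of all genes, with severe EAE 2 and 6 at 0 in lists too short to hold a footprint on most genes. Per 1000000 mapped unique reads, *Herc1* and *Ubr4* lay wholly below naïve, as did 15.5% of all genes, with exact p of 0.0286 and 0.0571 (adjusted 0.233 and 0.330).

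Mild EAE and naïve mice differed little on these genes. Called genes were 0 of 7 members and 0% of all genes, and 3 against 3 mice cannot give an exact p below 0.100, so that no gene had an unadjusted p under 0.05. Of the members, 5 had a lower and 2 a higher mean in mild EAE. The higher ones were *Huwe1* (1410 ± 683 and 1747 ± 650 nt, SD, n = 3 each) and *Ubr4* (2459 ± 810 and 2489 ± 913 nt). The *Ubr4* values took in footprints within *Emc1* exons, 6 in mild EAE 7 and 2 in naïve mouse 2. The exon density of *Ubr4*, as defined above, was lower in mild EAE, 129 ± 40.5 against 133 ± 49.5 in naïve mice. With footprints overlapping a single gene, 6 members had a lower and 1 a higher mean, and with exons only 4 and 3. No member's mice lay wholly on one side, where 5.26% of all genes lay wholly below and 5.24% wholly above naïve. Scaled to 1000000 covered nt, 6 of 7 means were higher in mild EAE, with a smallest exact p of 0.300 (adjusted 0.823), whereas per 1000000 mapped unique reads all 7 were lower. The direction thus depended on the scale. In severe against mild EAE, 0 members and 0% of all genes were called, with 124 genes and 1 member at an unadjusted p under 0.05, and *Herc1* alone lay wholly below mild EAE, where 2.87% of all genes did. Its exact p of 0.0286 was the smallest possible and was 1 after adjustment.

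For every member the range over the 3 naïve mice was wider than the difference between the naïve mean and that of EAE, mild EAE or severe EAE. Naïve mouse 3 had the highest naïve value for 6 of the 7 genes, although its list covered 2187075 nt in all, between the 2055065 nt of mouse 2 and the 2219869 nt of mouse 1. Without it, *Huwe1*, *Mycbp2* and *Trip12* had higher means in EAE, by 383, 514 and 182 nt. Without severe EAE 2 and 6, left out after their list lengths were seen, 5 of 7 members had a higher mean in EAE than in naïve mice. The direction of the pooled comparison therefore rested on a few lists.

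Stretches shared within a group were next compared, a stretch being more than 1 nt covered in at least 2 mice of the group. The 7 genes held 51 stretches in naïve mice (3831 nt), 55 in mild EAE (4226 nt) and 7 in severe EAE (452 nt), and every one of them lay in coding sequence. Stretches end at exon ends, so a contig that crosses a junction can be counted more than once. *Ubr4* had 21, 23 and 4, *Huwe1* 14, 19 and 2, *Mycbp2* 7, 4 and 1, *Herc2* 4, 3 and 0, *Trip12* 4, 2 and 0, *Herc1* 1, 4 and 0, and *Birc6* had 0 in each group. All 7 severe stretches paired severe EAE 1 with severe EAE 5, since the others had no footprint here. Without naïve mouse 3, 12 of the naïve stretches were left, as that mouse took part in 49 of the 51. Of the 51 naïve stretches, 21 overlapped a mild EAE stretch and 2 a severe EAE stretch, and 21 of the 55 mild EAE stretches overlapped a naïve one. On *Herc2*, none of the 4 naïve and 3 mild stretches overlapped.

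Most covered nt were not common to groups, nor to mice of the same group. Of the 92718 coding nt of the main transcripts, 16062 (17.3%) were covered in naïve, 15433 (16.6%) in mild EAE and 15665 (16.9%) in severe EAE mice, and 31329 (33.8%) in any mouse. Stretches covered in at least 2 mice of a group took up 3831 nt in naïve, 4226 nt in mild EAE and 452 nt in severe EAE. The severe EAE set came almost wholly from severe EAE 5, as severe EAE 1 had 633 covered exon nt and severe EAE 2 and 6 had 0. The 6995 nt covered in both naïve and mild EAE were 43.5% of the naïve and 45.3% of the mild set. The mild set covered 16.6% of all coding nt and the naïve set 17.3%, so these shares were above the covered part of the coding sequence. The part of the naïve set also covered in mild EAE was 61.4% for *Trip12*, 53.0% for *Herc2*, 48.7% for *Mycbp2*, 46.9% for *Ubr4* and 44.7% for *Huwe1*. It fell to 15.5% for *Herc1* and 9.69% for *Birc6*. The mild set covered 29.2% of the coding nt of *Ubr4* and 26.8% of *Huwe1*. It covered 20.9% of *Mycbp2* and 18.8% of *Trip12*, but 9.72% of *Herc1*, 8.92% of *Herc2* and 3.63% of *Birc6*. The part of sparse coverage in the low shares was not tested. For *Herc1*, the 270 coding nt covered in severe EAE and the 1618 covered in naïve mice, 11.1% of its coding sequence, had 0 nt in common. All of these 270 nt were from severe EAE 5.

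**Figure D5:**
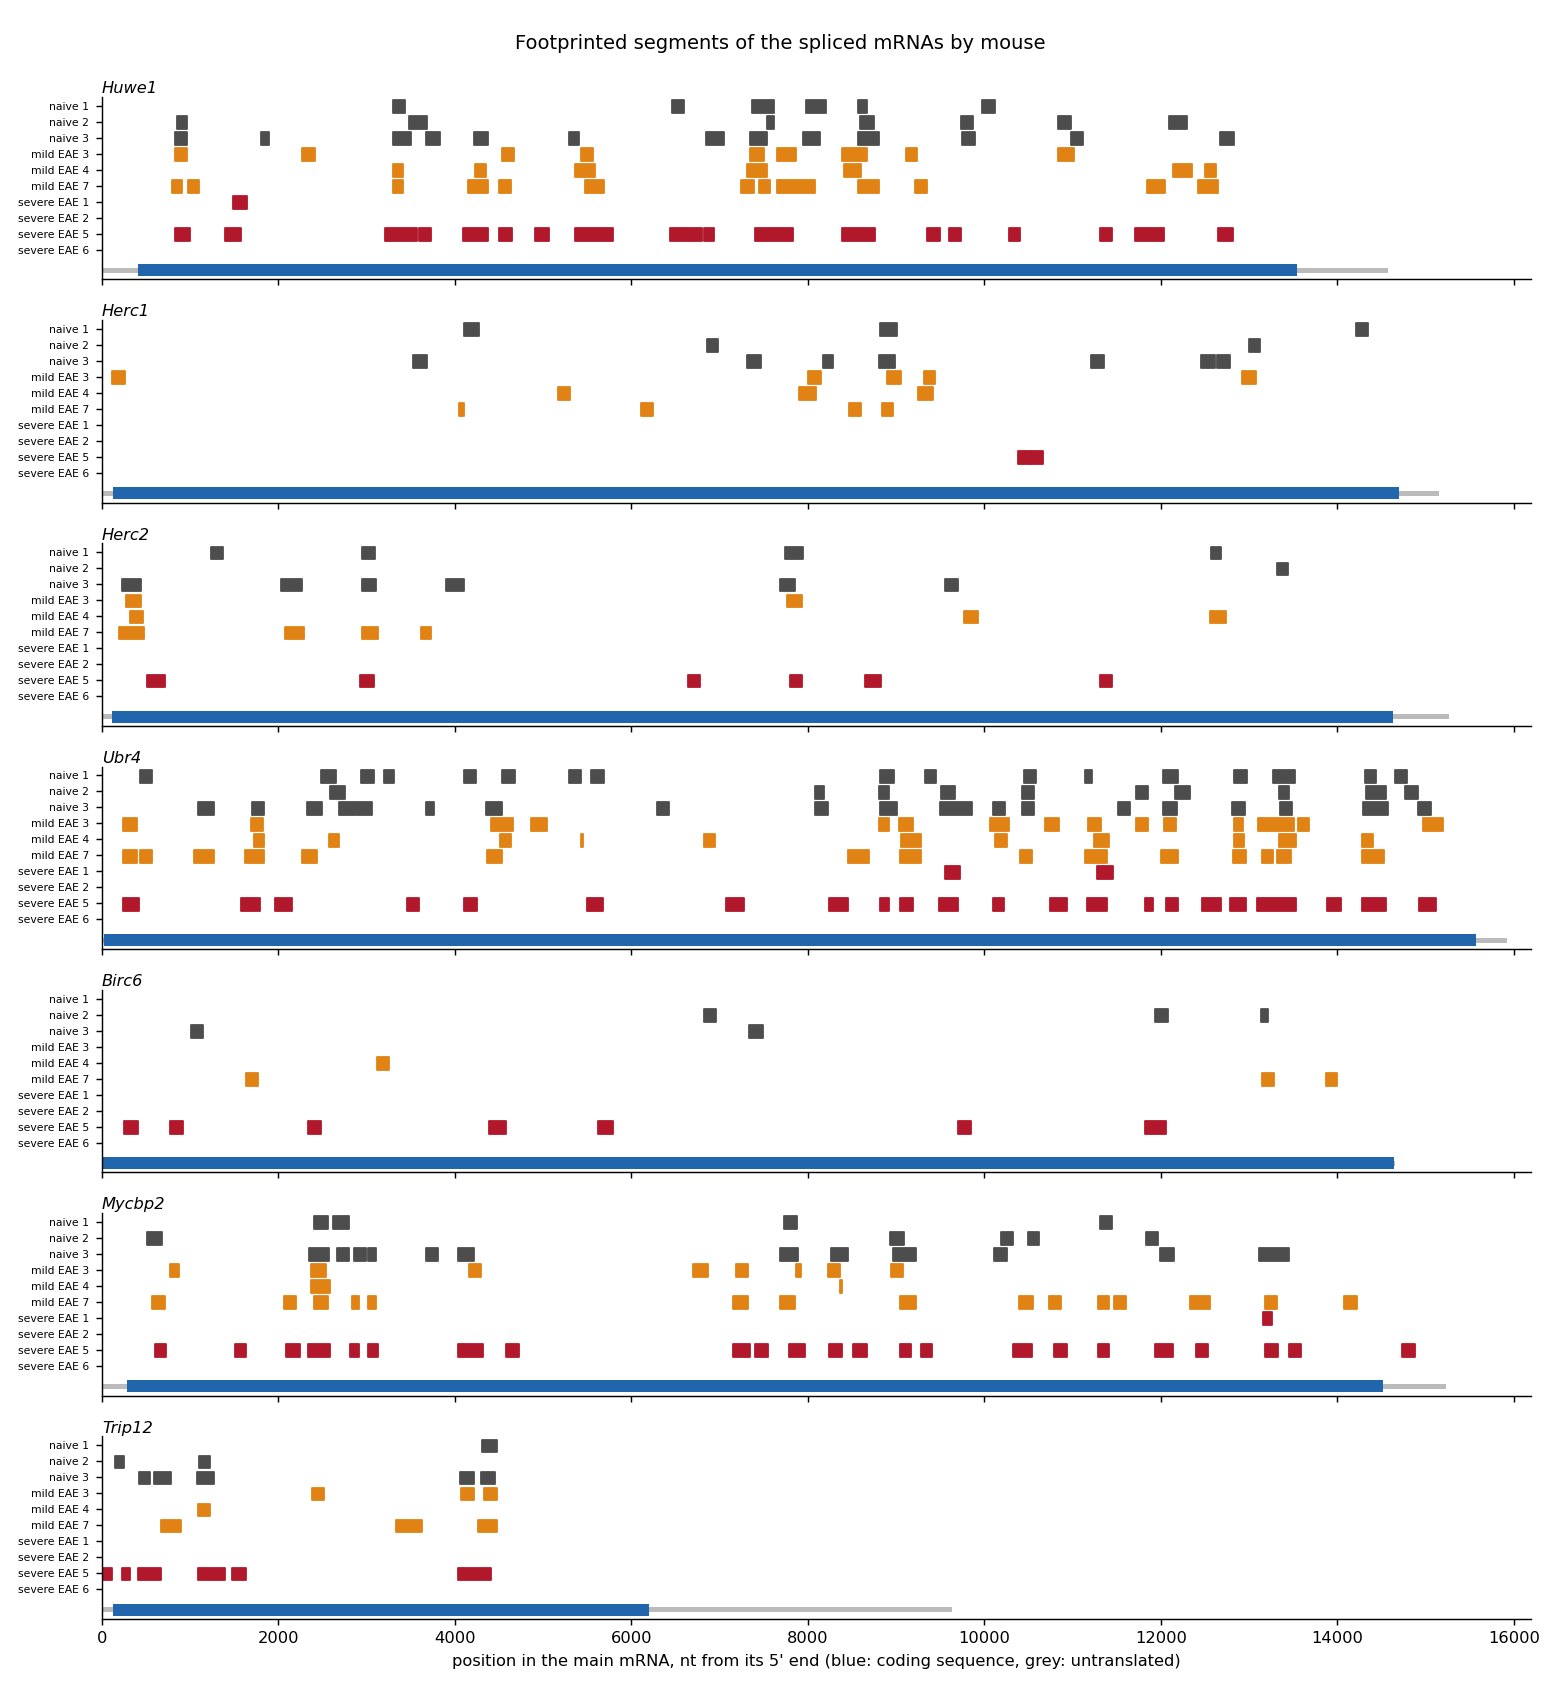
Footprinted segments along the spliced main mRNA of each gene, one row per mouse, in nt from the 5' end of the mRNA; the bar under each panel marks coding sequence in blue and untranslated sequence in grey. Segments recur at the same places in *Ubr4* and *Huwe1*, are scattered in *Birc6*, and leave the last part of the *Trip12* coding sequence and its whole 3' UTR of 3432 nt empty.

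No nt of any member was covered in more than 7 of the 10 mice. In *Ubr4*, 103 nt were covered in 7 mice, all naïve and mild EAE mice and severe EAE 5. They ran from the end of exon 91 to the start of exon 92, on both sides of 1 junction. In *Huwe1*, 16 nt of exon 59, an exon of 46 nt, were covered in the same 7 mice. In *Mycbp2*, 133 nt across the junction of exons 14 and 15 were covered in 6 mice, all mild EAE mice, naïve mice 1 and 3 and severe EAE 5. The most widely shared stretch of *Trip12*, in exon 28, was covered in 5 mice, those of *Herc1* in exon 44 and of *Herc2* in exons 4 and 20 in 4, and those of *Birc6* in exons 59 and 64 in 2. These stretches are shown because they are the parts of each gene covered in the most mice, with at most the 2 longest for each gene. In *Herc2* 5 stretches were tied at 4 mice, the shorter ones in exons 19, 48 and 49, and in *Birc6* 3 were tied at 2 mice, the shortest in exon 58. All are coding sequence of the gene's strand, 5' to 3', read from the GRCm38 genome, in lower case with UAG (written TAG) in capitals, and AGGT would also be in capitals.
Ubr4, exon 91, chr4:139469701-139469763: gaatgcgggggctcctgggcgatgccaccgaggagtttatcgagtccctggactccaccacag
Ubr4, exon 92, chr4:139470199-139470238: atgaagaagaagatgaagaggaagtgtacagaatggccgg
Huwe1, exon 59, chrX:151912230-151912245: gactccactgaacaga
Mycbp2, exon 14, chr14:103285250-103285300: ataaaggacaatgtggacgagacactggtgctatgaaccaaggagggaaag
Mycbp2, exon 15, chr14:103282721-103282802: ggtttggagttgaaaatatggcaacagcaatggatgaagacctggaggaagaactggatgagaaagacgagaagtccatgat
Trip12, exon 28, chr1:84743829-84743907: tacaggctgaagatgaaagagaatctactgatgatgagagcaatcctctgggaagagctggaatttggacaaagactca
Herc1, exon 44, chr9:66461807-66461873: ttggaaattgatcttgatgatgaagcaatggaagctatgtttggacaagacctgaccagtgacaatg
Herc2, exon 4, chr7:56072306-56072430: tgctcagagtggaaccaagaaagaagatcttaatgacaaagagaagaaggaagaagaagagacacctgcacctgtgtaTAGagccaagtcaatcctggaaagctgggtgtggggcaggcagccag
Herc2, exon 20, chr7:56114702-56114796: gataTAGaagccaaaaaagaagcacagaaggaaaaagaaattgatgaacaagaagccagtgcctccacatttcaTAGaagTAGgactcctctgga
Birc6, exon 59, chr17:74658178-74658246: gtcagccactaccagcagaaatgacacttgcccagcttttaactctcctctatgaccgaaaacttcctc
Birc6, exon 64, chr17:74670318-74670382: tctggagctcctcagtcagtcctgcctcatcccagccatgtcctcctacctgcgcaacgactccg

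UAG, the core of the known hnRNP A1 motif, occurred in only 2 of these 11 stretches, both of *Herc2*, once in exon 4 and 3 times in exon 20. AGGU occurred in none. The 4 shorter tied stretches of *Herc2* and *Birc6* held neither. Among all windows of the same length in the coding sequence of the same transcript, 60.0% (125 nt) and 49.3% (95 nt) held a UAG in *Herc2*, 21.6% (63 nt) and 14.1% (40 nt) in *Ubr4*, 9.72% (16 nt) in *Huwe1*, and 62.1% (79 nt) in *Trip12*. AGGU was held by 47.5% and 39.0% of the *Herc2* windows and by 3.95% of those of *Huwe1*, the highest and the lowest shares, and by 13.5% to 24.1% of those of the other genes. Only the strand of the gene was searched, and the motifs can overlap in UAGGU. A letter match is a description of the sequence and not of a binding site. Runs of purines were evident in several stretches, with 80% A or G in exon 92 of *Ubr4*, 72.5% and 70.7% in *Mycbp2* and 68% in exon 4 of *Herc2*, but 40.6% and 33.8% in *Birc6*.

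Over the whole coding sequences, UAG content differed more between genes than between covered and uncovered parts of most of them. The 31329 coding nt covered in at least 1 mouse held 6.32 UAG per 1000 nt, and the 61389 nt covered in none held 8.55. *Ubr4*, the member poorest in UAG, made up 28.1% of the covered and 11.0% of the uncovered nt, and within genes the difference, weighted by covered nt, was -1.07 per 1000 nt, against -2.23 for the pooled values. The covered and uncovered values were 7.76 and 7.82 in *Mycbp2*, 3.75 and 4.16 in *Ubr4* and 6.84 and 7.51 in *Huwe1*, the genes with the most covered nt. They were 5.24 and 11.0 in *Herc1*, 9.04 and 12.2 in *Trip12* and 7.72 and 10.0 in *Birc6*, and only in *Herc2* was the covered value the higher, 8.45 and 6.87. AGGU occurred at 3.57 and 3.80 per 1000 nt. G or C made up 50.7% of the covered and 48.3% of the uncovered coding nt, and A or G 53.8% and 50.9%, with the purine share higher in the covered part of all genes but *Birc6*. Nt covered in naïve mice and in EAE mice had similar contents, 5.98 and 6.16 UAG and 3.86 and 3.33 AGGU per 1000 nt. These values describe 7 transcripts and were not tested.

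With each coding sequence cut into 5 equal parts, the genes had different profiles. *Herc2* had 43.4% of its covered coding nt in part 1, with 39.3% in naïve, 55.1% in mild EAE and 31.7% in severe EAE mice. *Ubr4* was covered most in its last parts, with 27.0% in part 4 and 28.5% in part 5, and *Huwe1* had 27.2% and 26.5% in parts 2 and 3. *Mycbp2* had 28.9% in part 1 and 8.16% in part 2, and part 2 was below part 1 in each group. *Trip12* had 45.9% in part 1, 37.0% in part 4, and 0 of 3712 covered nt in part 5. In the HECT members, the last 350 codons, which take in the catalytic HECT domain, were covered less than their length would give over all mice. They were 7.99% of the coding sequence of *Huwe1* but held 4.49% of its covered nt, and 7.20% and 3.58% in *Herc1*. In *Herc2* and *Trip12*, where they were 7.24% and 17.3% of the coding sequence, they held 0%. *Ubr4* and *Mycbp2*, which have no HECT domain, had 5.36% in 6.76% and 2.48% in 7.37%, so lower coverage near the end was not particular to the HECT members.

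At the level of exons, 8 exons of *Huwe1*, 12 of *Ubr4*, 4 of *Mycbp2* and 1 of *Trip12* were footprinted in at least 5 mice, and none of *Herc1*, *Herc2* or *Birc6*. Exons footprinted in at least 6 mice were 28, 50, 51, 52, 59 and 60 of *Huwe1*, 82, 87, 88, 91, 92 and 98 of *Ubr4* and 14 and 15 of *Mycbp2*. In *Huwe1*, 9 exons had a footprint in at least 2 mild EAE mice but not in naïve mice, and 1 was footprinted in 2 or more naïve mice but not in EAE. *Ubr4* had 7 and 6 such exons, *Herc1* 4 and 0, *Mycbp2* 1 and 1, and *Herc2* 1 and 0. With 7 EAE mice against 3 naïve mice, fewer exons can be free of footprints in EAE, and the counts were not tested. Neighbouring exons can hold parts of the same contig and were counted separately.

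Other genes of the ubiquitin system were examined in the same way, against the median difference of -26.3 nt over all genes tested. Of 22 other HECT ligase genes, 20 had a footprint and 15 were tested, with 0 called in EAE against naïve and a median difference of 6.48 nt. The 3 found in the most mice were *Ube3a*, *Hectd4* and *Nedd4*, each in 8. *Ube3a*, the Angelman syndrome ligase, had far the longest covered length, 19868, 5274 and 11138 nt in naïve and 2821, 8723 and 18732 nt in mild EAE mice. Severe EAE mice 1, 2, 5 and 6 had 701, 0, 21399 and 0 nt. It overlaps the antisense transcript *Snhg14*, and without strand their RNA cannot be told apart. Of 12 UBR-box and other large ligase genes, 11 were footprinted and 9 tested, 0 were called, and the median difference was -78.3 nt. *Rnf213* and *Ubr2* were footprinted in 7 mice each, with means of 336 and 329 nt in naïve and 785 and 508 nt in mild EAE mice.

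Enzymes upstream of the ligases, and those that reverse them, showed no called gene. Of 12 genes of activating (E1) and conjugating (E2) enzymes, 10 were tested with a median difference of 52.4 nt, *Ube2o* and *Ube2d2a* being found in 7 mice and *Ube2m* in 6. All 4 ubiquitin genes were tested (median -9.52 nt), and *Ubb* and *Rps27a* were footprinted in 5 mice each. All 12 large deubiquitinase genes were tested (median 19.1 nt), with *Usp19* in 8 mice and *Usp7* and *Usp34* in 7. Of 14 known partners and substrates of the members, 11 were footprinted and 8 tested (median 31.1 nt), and *Mcl1*, a substrate of HUWE1, was found in 7 mice, *Neurl4*, a partner of HERC2, in 6 and *Map1lc3b* in 6. In none of these lists was a gene called in severe EAE against naïve either.

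Across the 10 mice, the genes with the profile most like the summed covered length of the 7 members were *Taok2*, *Mprip*, *Safb*, *Map4k4* and *Atrx*, each with Pearson's r of 0.998 over 10 mice on the log2(nt + 1) scale. Like the members, each was footprinted in 8 mice and at 0 in severe EAE 2 and 6. Of 3648 genes footprinted in at least 5 mice, 61 had r over 0.99 and 330 over 0.9, and the median r was 0.710. The points share the length of each mouse's list, and the members' sum had an r of 0.968 with the log2 of each mouse's total covered length.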

How the data were processed

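For CLIPseq, the authors trimmed the reads (fastp), assembled those of each immunoprecipitation into contigs (rnaSPAdes), aligned the contigs to GRCm38 with splicing allowed (minimap2 2.17), used bedtools to remove sites also found in the input or pooled IgG, and joined sites that overlapped. The deposited lists give positions only (chromosome, start, end), with no strand, score or read count, so the depth behind a footprint is unknown and a list holds only sites that passed. Inputs and IgG pools were not analysed here. Of 136207 footprints, 135636 lay on chromosomes and 0 past a chromosome end. The annotation was GENCODE M21.

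The members and gene lists were chosen with earlier results of these data known. Covered nt per gene were compared with the exact permutation test, two-sided, and p-values were adjusted by the Benjamini-Hochberg method. P-values measure the spread between mice. All 7 members are named; of each other list, the genes called or else the 3 footprinted in the most mice, and the 5 genes most like the members' sum, are named, except that some are not reported here. Sequences are those of the stretches shared by the most mice. The alternatives were footprint length limits (at least 30 nt, at most 1000 nt), other scales (per 1000000 covered nt, or mapped unique reads of the study's sequencing table, log2, number of footprints), exons or coding sequence only, spans with 1000 nt added, single-gene footprints, other gene filters, stretches of at least 20 nt or in 3 severe mice, the leaving out of each mouse in turn, and mice of the same number as a replicate block. The tests and the search for stretches were also run on simulated data. The mice simulated for the tests had equal depth, unlike the lists here, so the effect of unequal list length was not simulated. Python 3.11.15 with numpy 2.4.6, scipy 1.17.1, pysam 0.24.0 and matplotlib 3.10.9 was used, and samtools 1.23.1.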

Additional observations from a re-analysis of the deposited data

Results flagged for a closer look

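Severe EAE 5 stood apart from the other severe EAE mice in the covered length of every member, its gap to the next mouse being 0.920 to 1 of the group's whole range. It had 4376 nt on *Huwe1*, 271 nt on *Herc1*, 949 nt on *Herc2*, 4545 nt on *Ubr4*, 1193 nt on *Birc6*, 4168 nt on *Mycbp2* and 1405 nt on *Trip12*, and 16907 nt on all 7. The next severe mouse, number 1, had 635 nt on all 7. On *Herc1*, *Herc2*, *Birc6* and *Trip12* no other severe mouse had a footprint, so any footprint in severe EAE 5 gives a gap of 1. The flag there rests on presence alone and not on the size of the value, such as the 271 nt of *Herc1*. Chance alone flags about 1 in 20 groups of 4, a rate that does not apply to these genes, where the other mice are tied. The 8 values also share 1 list, that of 31870 footprints against 2670, 209 and 673 in the other severe mice. The paper describes this mouse as an outlier with a binding profile similar to that of naïve and mild EAE mice. It also reports that the mouse had been in remission shortly before the experiment ended. In the study's sequencing table, this mouse has the most mapped unique reads of the immunoprecipitations. Whether list length, sequencing depth or disease course accounts for these values was not tested. Groups of 3 mice were not screened in this way.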

How the results depend on the processing

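No member was called in any comparison under any alternative that was run. For several of them 0 was the only possible count, so its keeping the same value is no sign of stability. With 3 against 3 mice (smallest exact p 0.100), with fewer mice, or in the replicate block, no p under 0.05 could arise even before adjustment. With naïve and EAE mice of the same number as a replicate block, 0 members were called and the difference for *Birc6* in severe EAE was -270 nt; the numbers name different animals, the deviations of same-numbered mice correlated at -0.0311, 0.0874 and 0.0344, and naïve mouse 1 correlated best with EAE mouse 3. The uncalled differences changed sign readily. *Birc6* in severe EAE turned to -62.7 per 1000000 covered nt, -68.9 per 1000000 mapped unique reads, -3.23 on the log2 scale, -68.8 nt with single-gene footprints and -0.333 footprints, and in EAE to 22.8 nt with exons only. Without severe EAE 2 and 6, an alternative chosen after seeing the data, the differences in EAE were 548 nt for *Huwe1*, 16.1 for *Ubr4*, 62 for *Birc6*, 298 for *Mycbp2* and 88.3 for *Trip12*, and in severe EAE 863 for *Huwe1*, 759 for *Mycbp2* and 249 for *Trip12*. With single mice left out, the EAE differences ranged from -508 to 383 nt for *Huwe1*, -194 to 91.9 for *Birc6*, -675 to 514 for *Mycbp2* and -236 to 182 for *Trip12*, and the severe EAE differences from -1353 to 121, -283 to 144, -1342 to 385 and -453 to 147 nt. *Herc1*, *Herc2* and *Ubr4* stayed lower in EAE with each mouse left out. Shared stretches then numbered 12 to 34 in naïve, 24 to 37 in mild EAE and 0 to 7 in severe EAE, and 0 in severe EAE where 3 mice were required. The exon density difference, EAE minus naïve, ranged from -21.8 to 4.24 and the intronic share difference from -2.93 to -0.199 percentage points. The cause of these changes was not tested.

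With 3 naïve mice the smallest exact p is 0.00833 against 7 mice, and no gene can pass the adjustment unless very many reach it. Lists of 209 and 673 footprints cannot show whether the members were bound in those mice.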
